A study of Rattus norvegicus with 91 samples.

Results

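Rats of the HAD1 line, selectively bred for high alcohol drinking, were compared with rats of the LAD1 line, bred for low alcohol drinking, in the ventral tegmental area. The comparison holds the 18 arrays whose titles name this line pair: 8 labelled as the alcohol-preferring line, HAD1, and 10 labelled as the non-preferring line, LAD1. They are 18 of the 91 arrays of a series that covers 5 such pairs of lines, with 1 array per labelled animal. The labels give no age, sex, treatment or alcohol exposure for either line, and no litter, so p-values measure the spread between these arrays. A line is a closed breeding population, so a difference between HAD1 and LAD1 can come from selection or from drift, and the 2 cannot be told apart with 1 pair. A second, separately bred pair, HAD2 and LAD2 (8 and 9 arrays), was used to ask where HAD1/LAD1 differs from it.

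The ventral tegmental area is a small midbrain region. Its dopamine neurons project to the ventral striatum and the cortex and take part in reward and motivated behaviour, and GABA and glutamate neurons lie among them. Selective breeding changes the frequencies of many alleles at once, and bred lines can differ in sequence at a gene, in its regulation, or in both.

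Signals were deposited on a log2 scale, on which a difference of 1 is a 2-fold difference. They ran from 3.75 to 15.32 over 20826 probe sets with 1 gene symbol, which stand for 14217 genes. A probe set is a group of short probes against 1 stretch of a transcript, and a gene can have several. Each probe set was tested with limma over the 18 arrays, and it was called at a Benjamini-Hochberg adjusted p under 0.05 over all 20826. The number of arrays limits the precision, and the median standard error of a difference was 0.06. No call of presence comes with these values, so a signal was described as dim where it lay under 7.12, the 40th percentile of all values of the pair. Tissue was measured in bulk, so fewer cells of a type and less RNA per cell cannot be told apart.

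The array labelled LAD1 37 lay with HAD1 rather than with the other LAD1 arrays. Each array was placed between the means of the lines (0 at the LAD1 mean, 1 at the HAD1 mean), over the probe sets called with that array left out. LAD1 37 had a median place of 1.01, and it was nearer to the HAD1 mean at 85.9% of 841 probe sets. The 8 HAD1 arrays had places from 0.82 to 0.99, and the other 9 LAD1 arrays from -0.10 to 0.06. With LAD1 37 also kept out of the calls and of the LAD1 mean, the HAD1 arrays had places from 0.84 to 1.02 and the other LAD1 arrays from -0.01 to 0.26. LAD1 40 (0.26) and LAD1 31 (0.21) then lay farthest toward HAD1, nearer to its mean at 34.5% and 31.7% of the probe sets. The array most like LAD1 37 was HAD1 30, with a correlation of 0.997 across probe sets, which are not independent replicates. Its mean correlation was 0.995 with the HAD1 arrays and 0.992 with the other LAD1 arrays. The label was kept. Whether it is correct was not tested, and the differences and p-values over 18 arrays hold only as far as it is. Counts and most differences are therefore given with all 18 arrays and without LAD1 37. Of the 97 called probe sets chosen by the rules for naming, 97 were also called without it, in the same direction. That is no separate check, because the 30 widest were chosen as called in both fits. Of all 509 calls, 507 were shared by both fits.

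**Figure D1:**
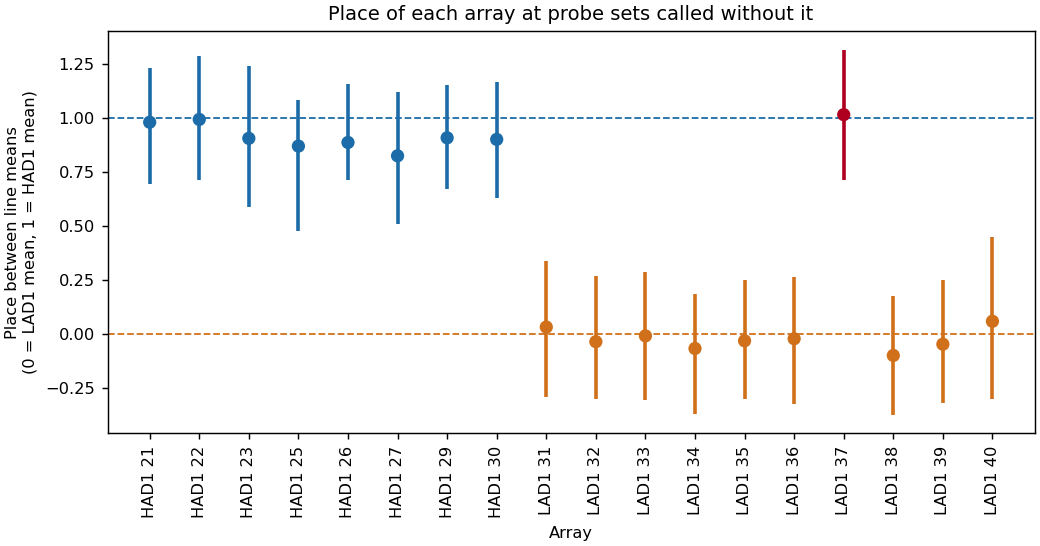
The horizontal axis gives the 18 arrays, and the vertical axis the place of each between the LAD1 mean (0) and the HAD1 mean (1), without unit; points are medians and lines quartiles over the probe sets called without that array. LAD1 37 sits at 1.01, among the HAD1 arrays at 0.82 to 0.99, and the other LAD1 arrays sit from -0.10 to 0.06.

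Between HAD1 and LAD1, 509 of 20826 probe sets were called (2.44%), 259 of them higher (1.24%) and 250 lower (1.2%) in HAD1. They stood for 466 genes. Of the 509, 127 reached a fold of 1.5 and 41 a fold of 2 (20 higher, 21 lower), and 71 were dim in both lines. Without LAD1 37, 841 probe sets were called (4.04%), 429 higher (2.06%) and 412 lower (1.98%), and they stood for 762 genes. The 2 fits shared 507 calls with the same direction. Among these, the difference was larger without LAD1 37 in 479. That is no separate result, because this array was already known to lie near HAD1. The split into higher and lower stayed within 10 percentage points under other scalings, but the larger side changed. It was 234 higher and 295 lower after quantile normalization, and 238 and 284 after centring of the arrays. Without LAD1 37 the same scalings gave 410 and 475, and 405 and 453. An unadjusted p under 0.05 was reached by 2621 probe sets, where 1041 would be expected with no difference at any probe set.

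Several of the widest differences were steps between a dim and a clear signal. Plekhh1, which encodes a protein with pleckstrin homology domains, stood highest in HAD1. Its signal ran from 7.34 to 12.05 in HAD1 with a median of 11.50, and from 6.19 to 11.98 in LAD1 with a median of 6.61. The lines overlapped only through LAD1 37 at 11.98, and HAD1 29, at 7.34, stood apart from the other HAD1 arrays. The difference was 3.94 ± 0.69 (log2 ± standard error, 8 and 10 arrays, limma adjusted p 0.00211), and 4.48 ± 0.45 without LAD1 37.

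Cyp2j10 belongs to a cytochrome P450 family that oxidises fatty acids. Its signal ran from 9.32 to 9.88 in HAD1 with a median of 9.54, and from 6.44 to 9.89 in LAD1 with a median of 6.82. LAD1 37 held the highest LAD1 signal, and the other 9 LAD1 arrays reached only 7.43, so that the lines did not overlap without it. The difference was 2.43 ± 0.32 (limma adjusted p 0.000194), and 2.74 ± 0.12 without LAD1 37. Amy1, an amylase gene with near-identical copies, ran from 7.72 to 8.95 in HAD1 (median 8.31) and from 4.95 to 8.24 in LAD1 (median 5.63). It was higher in HAD1 by 2.28 ± 0.37, or by 2.53 ± 0.29 without LAD1 37, and which amylase copy gave the signal is uncertain.

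Nrg1 encodes neuregulin 1, a ligand of the ErbB receptors. Its signal ran from 8.38 to 10.06 in HAD1 (median 8.72) and from 6.10 to 8.20 in LAD1 (median 6.82), with no overlap among all 18 arrays. The difference was 1.99 ± 0.26 (limma adjusted p 0.000164), and 2.129 ± 0.22 without LAD1 37. Kif15, a mitotic kinesin gene, ran from 7.72 to 8.10 in HAD1 (median 7.93) and from 5.64 to 8.12 in LAD1 (median 6.12). Only LAD1 37 reached the HAD1 range, and the difference was 1.65 ± 0.23 with it and 1.85 ± 0.12 without it. The other genes that stood 15 highest were Ramac (1.84), Crebl2 (1.76), Galnt1 (1.68), Elavl1 (1.63), Smurf2 (1.61), Ints13 (1.43), Snx10 (1.271), Dennd1b (1.216), Pkp1 (1.14) and Cldn11 (1.13). Elavl1 encodes the RNA-binding protein HuR, Ints13 an Integrator subunit, Pkp1 a desmosomal plakophilin and Cldn11 the tight-junction claudin of myelin.

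Mis18a, whose protein takes part in the loading of centromeric histone, stood lowest in HAD1. Its signal ran from 6.47 to 7.72 in HAD1 (median 7.32) and from 7.70 to 11.10 in LAD1 (median 10.78). Without LAD1 37, at 7.70, the lowest LAD1 signal was 10.32. The difference of -3.22 ± 0.34 became -3.53 ± 0.17 without that array (limma adjusted p 2.75e-05 and 2.91e-11).

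Mx2, an interferon-inducible GTPase gene of the Mx family, was dim in every HAD1 array. It ran from 4.67 to 5.15 in HAD1 (median 4.92) and from 5.51 to 8.35 in LAD1 (median 7.95), with no overlap, and LAD1 37 held the lowest LAD1 signal. The difference was -2.82 ± 0.26 (limma adjusted p 1.15e-05), and -3.07 ± 0.09 without LAD1 37. Grifin, a galectin-related gene known from the lens, ran from 8.26 to 9.84 in HAD1 (median 8.88) and from 7.45 to 12.83 in LAD1 (median 11.72). LAD1 37, at 7.45, lay under all HAD1 arrays there, and the other LAD1 arrays lay above all of them. The difference was -2.38 ± 0.51 with it and -2.81 ± 0.30 without it.

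Ptprj, a receptor tyrosine phosphatase gene, ran from 8.70 to 9.25 in HAD1 (median 8.94) and from 8.59 to 10.87 in LAD1 (median 10.54), a difference of -1.34 ± 0.21 (-1.53 ± 0.10 without LAD1 37). Etfbkmt, a mitochondrial lysine methyltransferase gene, ran from 7.55 to 7.96 in HAD1 (median 7.76) and from 8.03 to 9.11 in LAD1 (median 8.93), a difference of -1.10 ± 0.11 (-1.19 ± 0.06 without LAD1 37). The lines did not overlap at Etfbkmt in the 18 arrays, and at Ptprj only without LAD1 37. The other genes that stood 15 lowest were Pakap (-1.89), Rab22a (-1.51), Lsg1 (-1.50), Paqr8 (-1.43), Pla2g4e (-1.24), Coq9 (-1.16), Atg12 (-1.15), Inhca (-1.08), Gpr137b (-1.07) and Grhl3 (-1.07). Rab22a encodes an endosomal small GTPase, Coq9 a protein of coenzyme Q synthesis, Atg12 a ubiquitin-like protein of autophagy and Pla2g4e a cytosolic phospholipase A2. At all 30 of these genes LAD1 37 was nearer to the HAD1 mean than to that of the other LAD1 arrays. The lines did not overlap at 6 of the 30 with 18 arrays and at 25 of the 30 without LAD1 37. The calls of Smurf2 and Lsg1 did not hold up to the loss of single arrays: 13 and 11 of the other 17 arrays ended them when left out, with adjusted p up to 0.0873 (without HAD1 21) and 0.0611 (without HAD1 26). That of Ramac was lost without LAD1 38 (adjusted p 0.0505).

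**Figure D2:**
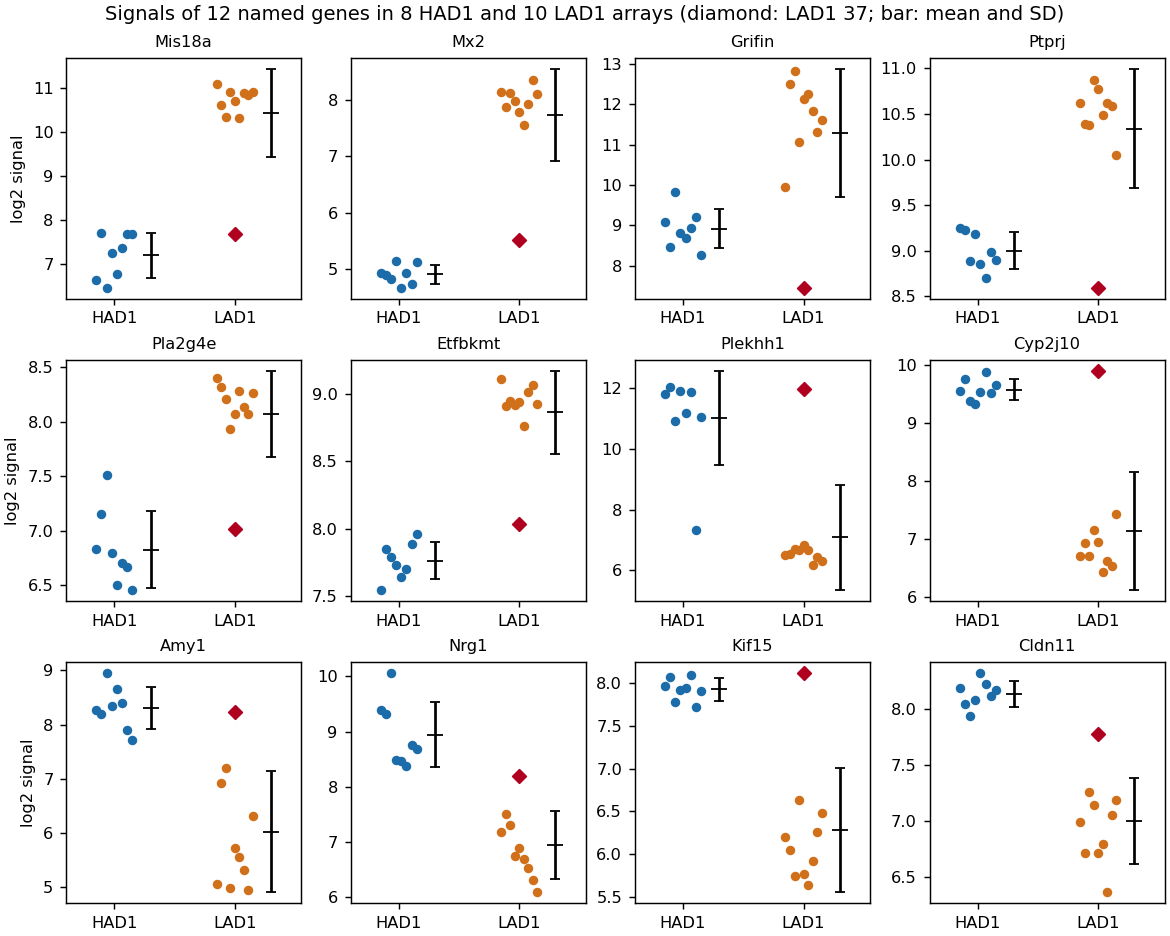
The panels plot log2 signal for 12 of the named genes, with HAD1 (blue points) and LAD1 (orange points, LAD1 37 as a red diamond) along the horizontal axis and mean and SD over all arrays of the line as black bars. At Mis18a the 9 other LAD1 arrays lie at 10.32 or above and LAD1 37 at 7.70, within the HAD1 range of 6.47 to 7.72.

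Lines that do not overlap at all were rare with 18 arrays and more common without LAD1 37. With 18 arrays, 34 probe sets of 33 genes had every HAD1 signal on 1 side of every LAD1 signal (0.163%), 18 higher (0.0864%) and 16 lower (0.0768%). After quantile normalization the split was 14 higher and 20 lower, and after centring of the arrays 16 and 22. At 27 of the 34, LAD1 37 was the LAD1 array nearest to HAD1. Without it, 234 probe sets of 220 genes did not overlap (1.12%), 131 higher (0.629%) and 103 lower (0.495%). At 173 of these 234 (73.9%) LAD1 37 lay inside the HAD1 range, at 27 (11.5%) beyond it, and at 27 (11.5%) between the lines. It lay inside the LAD1 range at only 7 (2.99%), those of Albfm1, Rassf6, Glrx3, Nucb2, Clic4, Stt3a and Mfsd4b1, which are named after their values were seen. Albfm1 and Rassf6 are neighbours among the measured genes. Albfm1 was 6.99 in LAD1 37, against a mean of 7.03 in the other LAD1 arrays and 6.24 in HAD1, and Rassf6 was 6.58 against 6.55 and 6.05.

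The widest differences were mostly seen at 1 of several probe sets of a gene. Of the 30 genes, 20 had a further probe set above the dim range, and at 3 of the 20 (Smurf2, Snx10 and Gpr137b) a further probe set was called in the same direction. Snx10, which encodes a sorting nexin of endosomes, was 1.271 ± 0.18 higher at 1 probe set and 0.85 ± 0.14 higher at the other. Gpr137b was lower at 3 probe sets, by differences of -1.07, -0.48 and -0.39, and had a value of 0.23 at the fourth, which did not pass. At the remaining 17 genes no further probe set above the dim range was called. The difference of Plekhh1 was 0.01 ± 0.09 at its other probe set, where the means were 11.54 in HAD1 and 11.53 in LAD1. That of Mx2 was 0.00 ± 0.07 (means 7.77 and 7.77), that of Ints13 0.05 ± 0.05 and 0.04 ± 0.05, and that of Cldn11 0.07 ± 0.05. Nrg1 differed by 0.61 ± 0.17 and 0.36 ± 0.18 at further probe sets above the dim range, neither of which passed (limma adjusted p 0.07 and 0.442), and without LAD1 37 the first passed (0.0452). Ramac differed by -0.30 ± 0.09 at its brighter probe set, against 1.84 at the named one, and that passed only without LAD1 37 (adjusted p 0.0925 with it and 0.0055 without). No probe sequences were used here, so transcript level and the binding of a probe cannot be told apart at such genes.

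**Figure D3:**
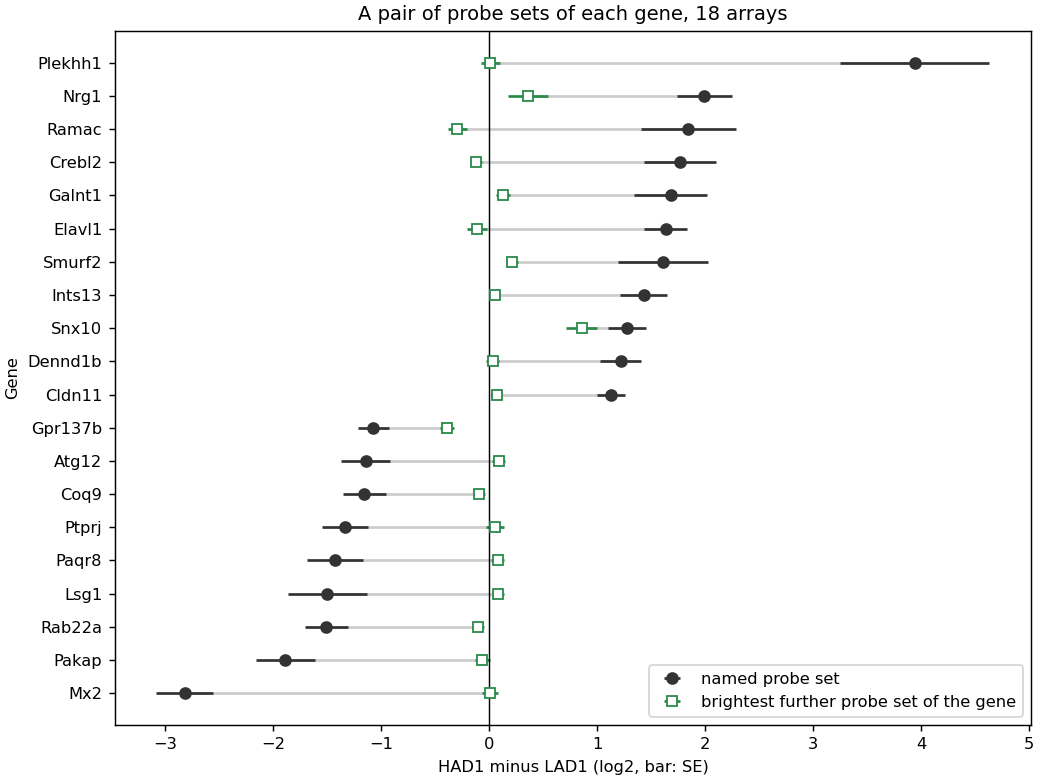
The horizontal axis gives the HAD1 minus LAD1 difference (log2, bars: standard error, 18 arrays) for the 20 genes on the vertical axis, at the named probe set (filled circles) and at the brightest further probe set (open squares). Plekhh1 lies at 3.94 and 0.01 and Mx2 at -2.82 and 0.00, while Snx10 lies at 1.271 and 0.85.

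Over the whole array, 4525 genes had several probe sets. Of these, 222 had 1 called probe set, 23 had at least 2 called in the same direction, and 15 had probe sets called in opposite directions (28 without LAD1 37). Among the 15 were Clip1, Epn2, Vcl, Comtd1, Clic4, Hid1, Uri1, Mapk1ip1l, Zfp212, Vps33a, Thumpd3, Shld2, Cfap69 and Acer3. Zfp212, a zinc finger gene, was 1.14 ± 0.12 higher at 1 dim probe set and -0.36 ± 0.05 lower at a brighter one, and the lines did not overlap at either in the 18 arrays. Among 255 uncalled probe sets above the dim range in the 222 genes, 148 had the sign of the called one. Of the calls that make up the 15, those of Hid1 (-0.22), Vcl (-0.22), Shld2 (0.19), Thumpd3 (0.18) and Mapk1ip1l (0.31) were each lost when any of at least 10 single arrays was left out. That of Comtd1 (0.36) was lost without HAD1 21.

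Dopamine neuron genes were measured well in both lines, which fits the labelled region. In the list of dopamine neuron markers, 17 genes were measured at the brightest probe set of each, 15 of them above the dim range, and 0 were called higher and 1 lower in HAD1. Counted in this way, 323 of all 14217 genes were called (2.27%), 174 higher and 149 lower, and the median difference was -0.06 in the list and 0.00 over all genes. Without LAD1 37, 572 genes were called (4.02%), 314 higher and 258 lower. Th encodes tyrosine hydroxylase, which makes the dopamine precursor L-DOPA. It ran from 13.98 to 14.50 in HAD1 (median 14.35) and from 13.89 to 14.69 in LAD1 (median 14.40). The lines overlapped throughout, with a difference of -0.01 ± 0.10 (-0.03 ± 0.10 without LAD1 37). Slc6a3, the dopamine transporter gene, differed by -0.06 ± 0.10 and by -0.38 ± 0.22 at its second probe set, and neither passed.

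Ddc encodes the decarboxylase that makes dopamine and serotonin. Its brightest probe set ran from 12.29 to 13.51 in HAD1 (median 12.59) and from 13.16 to 13.88 in LAD1 (median 13.49). Of the 8 HAD1 arrays, 6 lay under all LAD1 arrays, and the difference was -0.69 ± 0.15 (limma adjusted p 0.0145), or -0.72 ± 0.15 without LAD1 37. At its other probe set the difference was 0.31 ± 0.13 and did not pass (adjusted p 0.311). Slc18a2, which loads dopamine into vesicles, differed by 0.00 ± 0.11 at its brightest probe set, which ran from 13.20 to 13.67 in HAD1 and from 12.87 to 13.72 in LAD1. At a second probe set it was lower, by -0.71 ± 0.18 (limma adjusted p 0.0403) and by -0.81 ± 0.16 without LAD1 37, with signals from 12.05 to 13.12 in HAD1 (median 12.50) and from 12.33 to 13.65 in LAD1 (median 13.34). At its remaining probe set the difference was -0.50 ± 0.18, which passed only without LAD1 37 (-0.60 ± 0.16, adjusted p 0.204 with it and 0.0421 without).

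Gch1 encodes the first enzyme of tetrahydrobiopterin synthesis, the cofactor that tyrosine hydroxylase needs. It ran from 9.61 to 10.50 in HAD1 (median 10.29) and from 9.85 to 11.43 in LAD1 (median 11.14), and the lines did not overlap without LAD1 37 (9.85). It was lower in HAD1 by -0.76 ± 0.17 (limma adjusted p 0.0173), and by -0.88 ± 0.12 without that array (adjusted p 0.000109). The mean signal of the 17 dopamine neuron markers ran from 10.75 to 11.23 over the HAD1 arrays and from 10.78 to 11.42 over the LAD1 arrays, so the list as a whole overlapped between the lines. LAD1 37 had the lowest list mean among the LAD1 arrays.

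**Figure D4:**
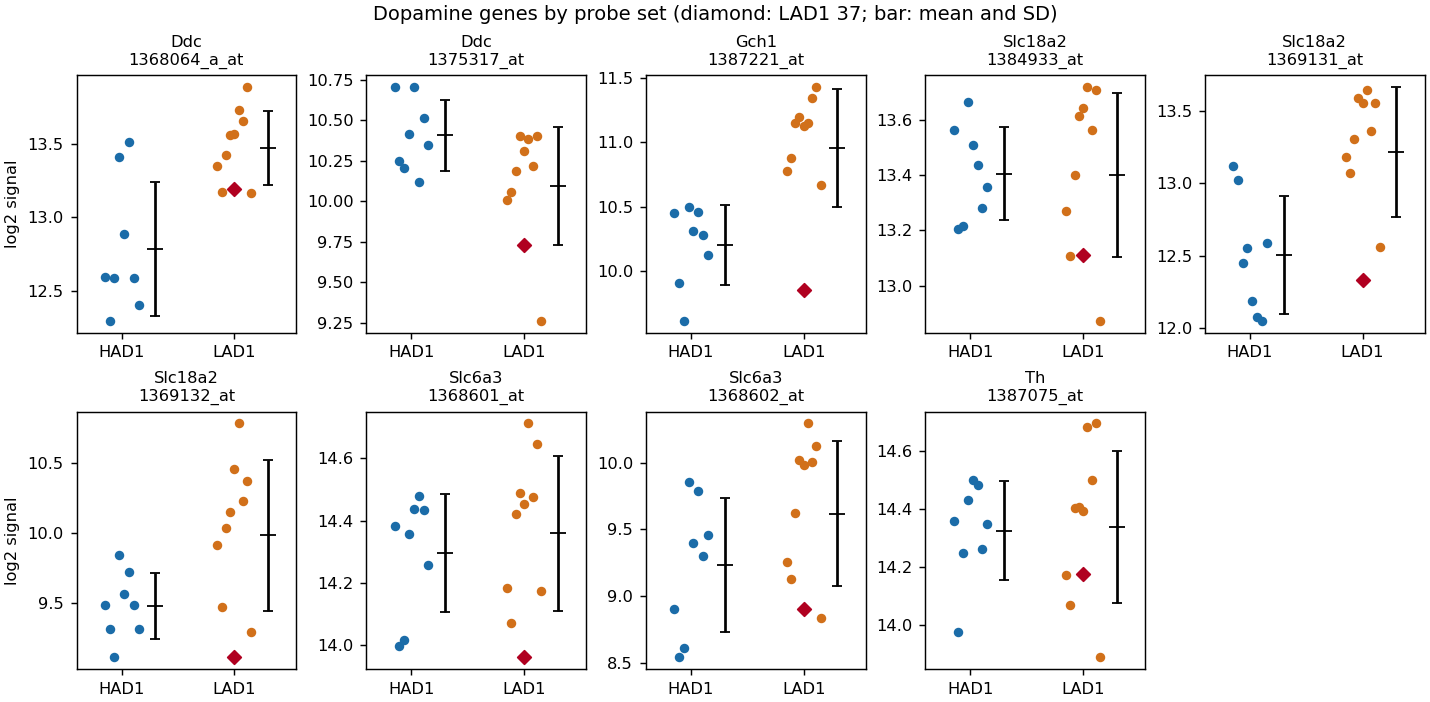
The panels plot log2 signal at the 9 probe sets of Ddc, Gch1, Slc18a2, Slc6a3 and Th above the dim range, with HAD1 (blue) and LAD1 (orange, LAD1 37 as a red diamond) along the horizontal axis and mean and SD as black bars. Th overlaps throughout (means of 14.33 and 14.34), while the probe sets of Ddc differ by -0.69 and 0.31.

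The lists of GABA-A and GABA-B receptors (16 genes), opioid peptides and receptors (8), ionotropic glutamate receptors (19), synaptic vesicle genes (29), sodium and calcium channels (22) and ethanol and aldehyde metabolism (14) had 0 called genes by limma with 18 arrays. Of all genes 2.27% were called, so that few calls would be found among 108 genes at that share. Of the 108, 8 had an unadjusted limma p under 0.05 (7.41%), against 12.6% of all probe sets. The 12.6% counts every probe set and the 108 only the brightest of each gene. Lists with 0 calls tend to hold few small p-values, so this share follows in part from the choice. It was 0 of 16 for the GABA receptors and 3 of 14 (21.4%) for ethanol and aldehyde metabolism. Other lists with 0 calls had 2 of 21 (glycine and acetylcholine receptors), 4 of 31 (other neuropeptides) and 3 of 22 (heat shock). Immediate early genes had 2 of 16 and the respiratory chain 1 of 33. Without LAD1 37 the NMDA receptor subunit gene Grin3a was called lower (-0.53 ± 0.14, limma adjusted p 0.0437).

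Interferon-response genes held the most calls of the 35 lists. Of 29 measured, 5 were higher and 1 lower in HAD1, where 2.27% of all genes were called, and without LAD1 37 9 were higher and 1 lower, where 4.02% of all were. The median difference of the list was 0.08, against 0.00 over all genes. The promoters of 3 called genes, those found in the promoter table used here, are shown because these genes share a known control by interferon. They are the 250 bases before the start site from RefSeq on GRCr8, printed 5′ to 3′ along the gene, with matches to the letters GAAANNGAAA on either strand in capitals, a core of the interferon-stimulated response element.
Ifi27 (chr6:128355062-128355311, plus strand): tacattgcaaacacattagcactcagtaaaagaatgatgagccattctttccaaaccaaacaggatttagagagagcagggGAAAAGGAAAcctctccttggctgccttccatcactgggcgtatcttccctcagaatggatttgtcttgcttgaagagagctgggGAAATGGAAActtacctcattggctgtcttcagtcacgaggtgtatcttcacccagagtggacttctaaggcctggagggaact
Irf7 (chr1:205800024-205800273, minus strand): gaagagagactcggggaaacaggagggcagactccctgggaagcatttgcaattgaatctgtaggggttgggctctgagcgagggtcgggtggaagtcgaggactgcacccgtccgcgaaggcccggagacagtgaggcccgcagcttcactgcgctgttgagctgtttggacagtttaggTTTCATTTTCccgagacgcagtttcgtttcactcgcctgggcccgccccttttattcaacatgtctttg
Oas1b (chr12:41395853-41396102, minus strand): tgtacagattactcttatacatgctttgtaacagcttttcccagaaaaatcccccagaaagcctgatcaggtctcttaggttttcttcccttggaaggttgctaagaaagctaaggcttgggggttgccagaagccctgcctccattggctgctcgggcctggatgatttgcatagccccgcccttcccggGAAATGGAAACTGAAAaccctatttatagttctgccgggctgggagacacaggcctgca
Of the 29 genes, 22 had a promoter in the table and 13 of the 22 held a match, as did 3 of 3 called genes and 10 of 19 uncalled ones. Over all 33469 promoters of this length 3.41% held a match. In Oas1b the 2 matches overlap. A match is a run of letters and not a measured binding site.

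Ifi27, a small mitochondrial and nuclear membrane protein gene induced by interferon, ran from 10.56 to 11.99 in HAD1 (median 11.78) and from 10.39 to 11.70 in LAD1 (median 10.71). The lines overlapped through HAD1 29 at 10.56 and through LAD1 37 at 11.70. The difference was 0.89 ± 0.18 (limma adjusted p 0.00838), and 0.997 ± 0.16 without LAD1 37. Irf7, the transcription factor that drives type I interferon genes, ran from 7.71 to 8.18 in HAD1 (median 7.92) and from 7.07 to 7.64 in LAD1 (median 7.45). The lines did not overlap, and the difference was 0.52 ± 0.08 (0.54 ± 0.08 without LAD1 37). Oas1b, a gene of the oligoadenylate synthetase family with close copies, was dim in both lines, from 5.67 to 6.31 in HAD1 and from 4.92 to 5.96 in LAD1. It was 0.71 ± 0.11 higher in HAD1, and 0.78 ± 0.08 without LAD1 37.

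Usp18, which removes the ubiquitin-like modifier Isg15, was 0.49 ± 0.12 higher (0.56 ± 0.10 without LAD1 37). Ifit1, an RNA-binding antiviral gene that was dim in both lines, was 0.44 ± 0.10 higher (0.50 ± 0.08 without LAD1 37). Ifitm1, a membrane protein gene that restricts viral entry, was lower, with a difference of -0.56 ± 0.11 at a dim probe set (-0.64 ± 0.07 without LAD1 37). Isg15 (0.25 ± 0.07), Rsad2 (0.40 ± 0.12), Ifit3 (0.25 ± 0.08) and Oas1a (0.24 ± 0.07) did not pass with 18 arrays (limma adjusted p 0.0551 to 0.103) and passed without LAD1 37, and Ifit3 and Oas1a were dim in both lines. Mx2, lower in HAD1 as given above, is not in the list. Microglia markers (14 genes) had 0 genes higher and 1 lower, where 2.27% of all genes were called. Their list mean ran from 8.41 to 8.69 in HAD1 and from 8.34 to 8.91 in LAD1. The fractalkine receptor gene Cx3cr1 was the lower one (7.66 to 7.93 in HAD1, 7.81 to 8.28 in LAD1, difference -0.33 ± 0.06, or -0.37 ± 0.05 without LAD1 37). The part of microglia in the interferon genes was not tested.

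Among 25 genes of the major histocompatibility complex (MHC) and peptide loading, 2 were higher and 2 lower in HAD1, and 5 and 3 without LAD1 37. Of all genes, 2.27% were called with 18 arrays and 4.02% without that array. RT1-S3, a class I gene, ran from 8.90 to 9.79 in HAD1 and from 8.07 to 9.68 in LAD1, where only LAD1 37 exceeded 8.62, and was 0.85 ± 0.17 higher (0.97 ± 0.12 without LAD1 37). Psmb8, a subunit of the immunoproteasome, was 0.59 ± 0.12 higher (0.68 ± 0.08 without it). The class II genes RT1-Bb (-0.74 ± 0.14, dim in both lines) and RT1-DMb (-0.27 ± 0.07) were lower, by -0.81 ± 0.13 and -0.28 ± 0.07 without LAD1 37, and 7 single arrays each ended the call of RT1-DMb when left out (adjusted p up to 0.0714, without HAD1 29). RT1-Ba, also of class II, leaned the other way at its brightest probe set (0.44 ± 0.14), which passed only without LAD1 37 (0.52 ± 0.12). Another RT1-Ba probe set was called higher with LAD1 37 included, so the class II genes did not share a direction. Called only without LAD1 37 were RT1-T24-4 (2.16 ± 0.42) and RT1-CE16 (1.06 ± 0.23), both higher, and RT1-M3-1 (-0.46 ± 0.11), lower. The RT1 genes have near-identical copies and differ in sequence between rats, so which copy gave a signal is uncertain.

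Among 32 potassium and HCN channel genes, 3 were higher in HAD1 and 0 lower, with and without LAD1 37. The shares of all genes called were 2.27% with that array and 4.02% without it. Kcnip1, which encodes a calcium-binding subunit of Kv4 channels, ran from 10.14 to 10.98 in HAD1 (median 10.44) and from 9.39 to 10.64 in LAD1 (median 9.83). Its difference was 0.63 ± 0.14 (limma adjusted p 0.0168), and 0.66 ± 0.15 without LAD1 37. Kcnq5, a channel of the M-current, was 0.51 ± 0.13 higher (0.58 ± 0.11 without it), and Kcnk1, a two-pore-domain channel gene dim in both lines, was 0.34 ± 0.09 higher (0.35 ± 0.09 without it). At a further probe set above the dim range Kcnq5 differed by 0.01 ± 0.05, which did not pass. The calls of Kcnq5 and Kcnk1 were lost when any of 12 and 11 single arrays was left out. Their limma adjusted p rose to 0.0684 (without HAD1 23) and 0.0797 (without HAD1 22).

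Signalling genes called lower in HAD1 were found in the cyclic AMP, metabotropic glutamate and purine lists. Their counts stand beside 2.27% of all genes called with 18 arrays and 4.02% without LAD1 37. Of 28 cyclic AMP and kinase genes, 0 were higher and 2 lower: Akap5, a scaffold that anchors protein kinase A at synapses (-0.82 ± 0.18), and Prkar2a, a regulatory subunit of that kinase (-0.31 ± 0.07). Without LAD1 37 these were -0.89 ± 0.17 and -0.35 ± 0.06, and the transcription factor gene Crem (-0.21 ± 0.06) made 3 lower. Akap5 was dim in HAD1, from 5.79 to 6.95, and ran from 6.63 to 7.89 in LAD1. Grm2, a presynaptic metabotropic glutamate receptor gene, was the only called gene of 19 in its list with 18 arrays. It ran from 6.33 to 6.74 in HAD1 (median 6.64) and from 6.71 to 7.55 in LAD1 (median 7.07), at the edge of the dim range, and the lines overlapped narrowly with a difference of -0.50 ± 0.09 (limma adjusted p 0.00237), or -0.53 ± 0.09 without LAD1 37. Without LAD1 37, Homer2 (-1.19 ± 0.27), Grm5 (-0.44 ± 0.12, dim in both lines) and Dlg4 (0.41 ± 0.08) of that list also passed. Of 19 purine receptor and adenosine genes, only the ATP-gated channel gene P2rx4 was called (-0.33 ± 0.05, and -0.35 ± 0.05 without LAD1 37).

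Single calls stood in several other lists. With 2.27% of all genes called, or 4.02% without LAD1 37, 1 call says little about a list. Gsta4, a glutathione transferase gene that clears products of lipid peroxidation, was the 1 called gene of 30 antioxidant genes. It ran from 11.03 to 11.55 in HAD1 (median 11.43) and from 11.31 to 12.70 in LAD1 (median 12.40), where LAD1 37 was the lowest at 11.31 and the next lowest was 12.20. The difference was -0.96 ± 0.13, and -1.08 ± 0.07 without LAD1 37, when Mgst1 (0.47 ± 0.11) and Gstt2 (-0.27 ± 0.07) were also called. Of 6 endocannabinoid genes the cation channel gene Trpv1 was higher (0.63 ± 0.15, and 0.69 ± 0.15 without LAD1 37), and 9 single arrays ended this call when left out (adjusted p up to 0.07, without HAD1 23). Of 12 neurotrophin genes Igf1r, the receptor of insulin-like growth factor 1, was higher (0.23 ± 0.06, and 0.24 ± 0.06 without LAD1 37). Leaving out any of 11 single arrays ended that call (limma adjusted p up to 0.0955, without HAD1 22). At its further probe set above the dim range Igf1r differed by 0.12 ± 0.05, which did not pass.

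Glial and vascular markers had calls in both directions, beside 2.27% of all genes called with 18 arrays and 4.02% without LAD1 37. Of 20 oligodendrocyte and myelin markers, 1 was higher and 0 lower at the brightest probe set of each, and 3 and 0 without LAD1 37. With 18 arrays this was Mobp, a myelin protein gene (0.30 ± 0.07, and 0.34 ± 0.06 without LAD1 37), which differed by -0.17 ± 0.06 and 0.12 ± 0.07 at further probe sets that did not pass. Cldn11 is also in this list. It was called 1.13 ± 0.13 higher at the probe set named above, with no overlap, and differed by 0.07 ± 0.05 at its brightest, which stands in the count. The mean of these markers ran from 11.35 to 11.59 in HAD1 and from 11.15 to 11.58 in LAD1, with LAD1 37 the highest LAD1 array. Of 19 endothelium and pericyte markers, Tek, the angiopoietin receptor gene, was higher (0.39 ± 0.09) and Abcb1a, the drug efflux pump of the blood-brain barrier, lower (-0.53 ± 0.09). Without LAD1 37 these were 0.45 ± 0.07 and -0.57 ± 0.08, and the claudin gene Cldn5 was also called higher (0.24 ± 0.06). Abcb1a did not overlap at its brightest probe set, from 8.74 to 8.94 in HAD1 and from 8.98 to 9.93 in LAD1. At its further probe set above the dim range the difference was -0.07 ± 0.08 and did not pass. Of 8 ependyma and choroid plexus markers, the chemerin gene Rarres2 was lower (-0.56 ± 0.13, and -0.61 ± 0.13 without LAD1 37), a call lost without HAD1 25 or HAD1 26 (adjusted p up to 0.0547). The 13 astrocyte, 9 GABA neuron, 10 meningeal and 5 blood markers had 0 called genes by limma with 18 arrays at the brightest probe sets. Of these 37 genes, 8 had an unadjusted limma p under 0.05 (21.6%), 4 of them among the 10 meningeal markers, against 12.6% of all probe sets. Outside this count, the glutamate neuron and neighbouring region markers also had 0 calls, and 0 of 4 and 1 of 11 under 0.05. The share therefore depends on which lists are pooled. Without LAD1 37 the astrocyte gene Agt, which encodes angiotensinogen, was called higher (0.24 ± 0.06). A dim further probe set of the glutamate transporter gene Slc1a2, named after its values were seen, was called lower with 18 arrays (-0.45 ± 0.05) with no overlap, while its brightest differed by 0.05 ± 0.06. In all, 30 genes of the lists were called, 16 higher and 14 lower, and 53 without LAD1 37, 32 higher and 21 lower. The shares of all genes to set beside these totals are 2.27% with 18 arrays and 4.02% without LAD1 37. The lists hold genes of interest picked with earlier results of these data known, so these counts are descriptions.

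Called genes lay beside each other on the chromosomes more often than measured genes at large. Of 466 called genes, 94 (20.2%) had a called gene as an adjacent measured gene, against 6.27% of all 14167 placed genes and 5.8% of the uncalled ones. Without LAD1 37 the shares were 29.2% of 761 called genes and 10.1% of all. With 18 arrays, 4 runs of 3 adjacent called genes were found. One held Ppfibp1 (0.26), Mrps35 (0.40) and Klhl42 (0.89), all higher in HAD1. Another held Timm44 (-0.30), Elavl1 (1.63) and Cers4 (0.73). The third held Afg3l1 (0.68), Dbndd1 (-0.50) and Gas8 (-0.23), and the fourth Ifit1 (0.44), Slc16a12 (-0.76) and Pank1 (0.40).

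Mrps35, a gene of the small mitochondrial ribosome subunit, ran from 10.26 to 10.50 in HAD1 (median 10.32) and from 9.86 to 10.30 in LAD1 (median 9.92), with LAD1 37 the highest LAD1 array. Klhl42, which encodes an adaptor of a ubiquitin ligase, ran from 8.85 to 9.51 in HAD1 (median 9.10) and from 7.85 to 9.26 in LAD1 (median 8.22). Cers4, a ceramide synthase gene, ran from 6.89 to 7.59 in HAD1 (median 7.34) and from 6.09 to 7.53 in LAD1 (median 6.47). At each of these 3 genes only LAD1 37 brought the lines into overlap. Slc16a12, a monocarboxylate transporter gene family member, was lower beside the higher Ifit1 and Pank1, so neighbours did not all move in 1 direction. The calls of Ppfibp1 and Pank1 were lost when any of 14 and 8 single arrays was left out, those of Timm44 with any of 4, and that of Gas8 without HAD1 30 (adjusted p 0.0538). Without LAD1 37, 17 runs were found, among them Bhlhe41, Sspn, Itpr2 and Ints13, all higher in HAD1.

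The HAD1/LAD1 difference was then set against that of the replicate pair, HAD2 (8 arrays) minus LAD2 (9 arrays), which shares no array with it. The test of the difference between the differences was passed by 726 of 20826 probe sets (3.49%), with a larger value for HAD1/LAD1 at 337 (1.62%) and a smaller one at 389 (1.87%). Without LAD1 37 the number was 843. Levels were compared within a pair only. Several named genes were also called in HAD2/LAD2, in the same direction, so these differences are not particular to HAD1/LAD1. Among them were Plekhh1 (2.99 ± 0.73), Kif15 (1.61 ± 0.20), Rab22a (-1.68 ± 0.16), Paqr8 (-1.51 ± 0.24) and Pakap (-1.41 ± 0.34). Ifi27 (1.41 ± 0.16) and RT1-S3 (1.14 ± 0.15) were others. Their gaps between the pairs did not pass with or without LAD1 37, which does not make the pairs equal.

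Mx2 had the widest opposite difference. Its mean signal was 4.91 in HAD1 against 7.74 in LAD1 and, in the second pair, 8.51 in HAD2 against 4.95 in LAD2, so that it was lower in HAD1 (-2.82) and higher in HAD2 (3.56 ± 0.23, adjusted p 7.3e-14). The 2 differences differed by -6.38 ± 0.33 (limma adjusted p 2.36e-16). Grifin was also lower in HAD1 (-2.38) and higher in HAD2 (1.84 ± 0.46), as were Ptprj (-1.34 and 1.54 ± 0.21) and Etfbkmt (-1.10 and 0.68 ± 0.12). In the other direction, Galnt1, which starts O-linked glycosylation, was higher in HAD1 (1.68) and lower in HAD2 (-2.18 ± 0.37). So were Elavl1 (1.63 and -1.84 ± 0.16) and Crebl2 (1.76 and -1.60 ± 0.34). Each value is from the 1 named probe set. Further probe sets above the dim range were not called in HAD1/LAD1 for Mx2 (0.00), Ptprj (0.05), Galnt1 (0.12), Elavl1 (-0.11) and Crebl2 (-0.12). A dim probe set of Elavl1 also went in opposite directions (0.40 and -0.47 ± 0.09).

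Mis18a and Cyp2j10 differed in HAD1/LAD1 but had differences of -0.07 ± 0.29 and -0.18 ± 0.26 in HAD2/LAD2, which did not pass. The gaps between the pairs were -3.16 ± 0.41 for Mis18a and 2.62 ± 0.36 for Cyp2j10. Dguok, a mitochondrial deoxyguanosine kinase gene, and Lysmd4 had the reverse pattern. Dguok differed by 0.16 in HAD1/LAD1, which did not pass, and by -2.89 ± 0.18 in HAD2/LAD2. Lysmd4 differed by 0.04 and by 3.47 ± 0.25. Sgcb, a sarcoglycan gene, had the widest positive gap, 5.04 ± 0.57. It ran from 6.86 to 9.81 in HAD1 (median 9.03) and from 6.54 to 9.66 in LAD1 (median 6.71), where only LAD1 37 exceeded 6.84. Its HAD1/LAD1 difference of 1.49 ± 0.47 did not pass with 18 arrays (adjusted p 0.121) and was 1.78 ± 0.39 without LAD1 37 (adjusted p 0.00876). These values are from 1 probe set. Further probe sets of Sgcb above the dim range leaned the other way (-0.19 ± 0.13 and -0.38 ± 0.15) and did not pass with or without LAD1 37. All 12 of these gaps passed with and without LAD1 37. The 12 genes were chosen by the same filters as the 30 above, so that is no separate check.

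**Figure D5:**
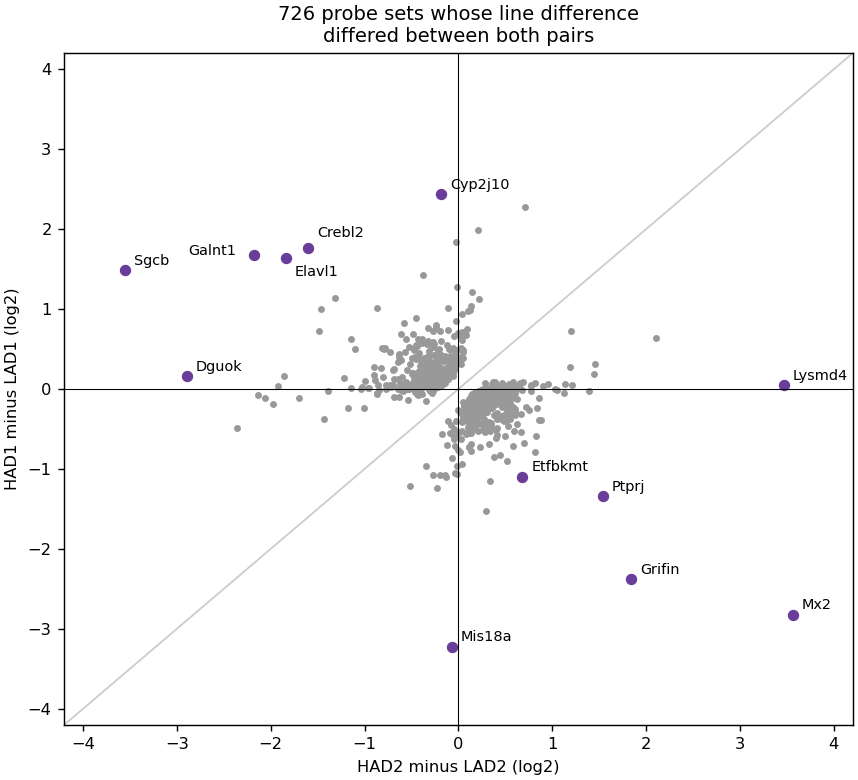
Each point is 1 of the 726 probe sets whose difference differed between the pairs, with HAD2 minus LAD2 on the horizontal and HAD1 minus LAD1 on the vertical axis (both log2); the 12 named genes are purple and the grey line marks equal differences. Mx2 lies at 3.56 and -2.82, and Galnt1 at -2.18 and 1.68.

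Measures of array quality were compared last. The 3'-minus-5' signal of the Gapdh control probe sets, which grows as RNA or labelled strands shorten, was 1.89 ± 0.14 (SD, n = 8) in HAD1 and 1.78 ± 0.10 (n = 10) in LAD1 (exact permutation test, 2-sided, p = 0.0559, adjusted over 4 measures 0.112). For actin it was 3.73 ± 0.16 and 3.57 ± 0.12 (exact permutation test, p = 0.0277, adjusted 0.111). The array medians and interquartile ranges had adjusted p of 0.234 and 0.292 by the same exact test. Without LAD1 37 the exact permutation p was 0.036 for Gapdh and 0.0354 for actin (adjusted 0.0719 for both). Both ratios were on average higher in HAD1, and their part in the calls was not tested.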

How the data were processed

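The authors deposited 1 log2 signal per array for each of 31099 Affymetrix probe sets. The submitters' processing notes name RMA, which corrects background, normalizes quantiles and summarises probes. Its version, and which arrays were normalized together, was not given in the sources used here. Trizol and an RNeasy kit were used for RNA extraction, and 25 ng went through 2 labelling cycles, per the labels. The table had 0 columns without a sample. Platform annotation gave 1 gene symbol to 20826 probe sets, several to 436 and none to 9780. The 57 controls were not tested. By gene ID, 20758 of the 20826 matched a GRCr8 gene table, which changed 0 symbols and was used for names and neighbours only.

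HAD1 and LAD1 arrays were taken from the titles and fitted alone with limma (lmFit and eBayes), with 2-sided tests and Benjamini-Hochberg adjustment over all single-gene probe sets, with and without LAD1 37. The difference from HAD2/LAD2 was a contrast in a fit of the 4 lines. Array measures were compared by exact permutation tests. For lists, a gene stood at its probe set with the highest mean over the 18 arrays.

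Named were the 15 highest and 15 lowest genes called in both fits and above the 40th percentile in a line, without predicted or clone-like symbols, and up to 4 called members of each of the 35 lists. Th, Slc6a3, Ddc and Slc18a2, members of runs of at least 3 adjacent called genes, genes with opposite calls and the 6 widest differences from HAD2/LAD2 in each direction were also named. Further genes given with values are list members that passed only without LAD1 37, the fifth and sixth interferon genes, and those said to be named after their values were seen. 1 gene with opposite calls is not reported here. The comparison, the lists and the rules were chosen with earlier results of these data known.

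Alternatives were other normalizations, filters on dim probe sets, array weights, larger fits, other choices of probe sets and each array left out. On simulated data for HAD1 minus LAD1 with 20826 probe sets, the fit recovered 56% of changes of 0.25 on the log2 scale. It recovered 100% of those of 0.5, 1 and 2, and 7 of 185 calls were false. These rates describe the simulated data only, and whether they hold for the measured arrays was not tested. In the measured data, the number of calls ran from 383 to 841 as each array was left out. The software was limma 3.58.1 under R 4.3.3 (tables read with data.table, version 1.17.8), and scipy 1.17.1, pandas 2.3.3, numpy 2.4.6 and matplotlib 3.10.9 under Python 3.11.15. Promoters are from RefSeq, build GRCr8.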

Additional observations from a re-analysis of the deposited data

Results flagged for a closer look

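For each named probe set and array measure, the gap between the highest or lowest array of a line and its nearest neighbour was divided by the range of the line. A single array was marked where this share was above the 95% critical value of Dixon's test for 8 HAD1 or 10 LAD1 arrays. Chance marks about 1 in 20 groups. Here 44 of 214 groups were marked, 35 of them by LAD1 37, 1 by another LAD1 array and 8 by a HAD1 array. Most of these probe sets were named because the lines differ there. LAD1 37 was already known to resemble HAD1, so its marks follow from that choice. The groups are also not independent, so the count is a description and not a test against that rate.

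Among probe sets called higher in HAD1, LAD1 37 stood apart from the other LAD1 arrays with gap shares of Plekhh1 (0.887), Cyp2j10 (0.713), Kif15 (0.597), Elavl1 (0.838), Ints13 (0.701), Oas1b (0.478), RT1-S3 (0.657), Ppfibp1 (0.475), Mrps35 (0.627), Afg3l1 (0.533), Klhl42 (0.58), Cers4 (0.655), Elavl1 (0.669), Mapk1ip1l (0.639), Zfp212 (0.757) and Vps33a (0.608). Elavl1 appears at its named and at a dim probe set. Among probe sets called lower in HAD1, the shares were Mis18a (0.772), Mx2 (0.722), Pakap (0.536), Rab22a (0.828), Ptprj (0.637), Pla2g4e (0.661), Coq9 (0.736), Atg12 (0.568), Etfbkmt (0.676), Ifitm1 (0.577), Gsta4 (0.643), Gch1 (0.518), Dbndd1 (0.575), Clip1 (0.513), Thumpd3 (0.5258), Zfp212 (0.495) and Shld2 (0.67). At Sgcb (0.901) and Dguok (0.596), which were not called in HAD1/LAD1 with 18 arrays, LAD1 37 also stood apart.

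Among HAD1 arrays, HAD1 29 stood apart at Plekhh1 (0.761), HAD1 21 stood apart at Coq9 (0.655), HAD1 25 stood apart at Mobp (0.562), HAD1 22 stood apart at Gsta4 (0.531), HAD1 29 stood apart at Ifi27 (0.792), HAD1 27 stood apart at Dguok (0.57), and HAD1 21 stood apart at Clic4 (0.605) and at Comtd1 (0.55). LAD1 36 had the lowest Gapdh 3'-minus-5' signal of its line (gap share 0.474).

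The difference between HAD1/LAD1 and HAD2/LAD2 was marked for 12 named genes, each by the limma test of that difference. The gaps on the log2 scale were Cyp2j10 2.62, Crebl2 3.36, Galnt1 3.86, Elavl1 3.47, Mis18a -3.16, Mx2 -6.38, Grifin -4.22, Ptprj -2.88, Etfbkmt -1.78, Sgcb 5.04, Dguok 3.05 and Lysmd4 -3.42. These were chosen by size and carry no further test.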

How the results depend on the processing

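No paired analysis was possible because the HAD1 and LAD1 animals share no numbers. Leaving out LAD1 37 moved the calls between the lines from 509 to 841, the non-overlapping probe sets from 34 to 234, the called genes of the lists from 30 to 53 and the genes with opposite calls from 15 to 28. The count was 332 with dim probe sets left out at the 60th percentile, 318 with 1 probe set per gene and 127 with a fold of at least 1.5 required. It lay between 485 and 695 under quantile normalization, centring, an intensity trend with a robust prior, the 40th percentile, array weights and fits of the 4 HAD and LAD lines or all 91 arrays, and was 343 for gene means. Leaving out each array gave 383 to 841 calls, and 687 to 953 with LAD1 37 left out as well, an alternative chosen after seeing the data, as were the further scalings of the lists, the places and the non-overlapping probe sets.

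Of 97 called probe sets named, 77 kept their call without each other array and 20 lost it at least once. Of the 97, 4 lost it under quantile normalization, 2 under centring, 5 under the trend and 0 without LAD1 37, and none of these settings turned a sign. The 0 follows in part from the choice of genes called in both fits. Of 69 with several probe sets, gene means ended 22 calls and turned 14. Slc18a2 at its brightest probe set, which was not called, turned to -0.029 without LAD1 37, -0.024 after quantile normalization, -0.0070 after centring and -0.40 as a gene mean. Over single arrays left out it ran from -0.056 to 0.039, and Th from -0.062 to 0.037. The uncalled Lysmd4 was -0.034 as a gene mean. The mean over a gene's probe sets turned 1 probe set each of these genes with opposite calls, by construction: Epn2 0.050, Comtd1 -0.0057, Clic4 0.092, Hid1 0.050, Mapk1ip1l -0.076, Shld2 -0.22, Cfap69 0.089, Vps33a -0.027, Zfp212 0.39, Acer3 -0.021, Thumpd3 -0.17, Clip1 -0.19, Vcl 0.049 and Uri1 0.13. The cause of the other moves was not tested. Signals near the dim range limit what small differences can be seen.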
